A study of Canis lupus familiaris with 9 samples.

Results

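The 10 genes described here encode the switch that lets a cell leave G1, the phase before DNA replication. They are the D-type cyclins CCND1, CCND2 and CCND3, their kinases CDK4 and CDK6, the inhibitors CDKN1B (p27) and CDKN2C (p18), the pocket proteins RB1 and RBL2 (p130), and the transcription factor E2F3. They were chosen by gene symbol, and all 10 of 10 were found, each with a single entry, among 28008 features. All 10 passed the filter on low values. A D cyclin binds CDK4 or CDK6, and the active kinase phosphorylates the pocket proteins, which then release E2F factors to switch on genes of DNA replication. In resting T cells p27 holds cyclin-dependent kinases in check, and p130 joins the DREAM complex, which keeps cell cycle genes off. CCND2 and CCND3 are the D cyclins known from lymphocytes, while CCND1 is better known from epithelial and connective tissue cells.

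RNA was sequenced from 9 dog samples. The Boxer lymphomas came from 2 castrated males aged 6 years (libraries 1 and 3) and a spayed female aged 8 years (library 2). The other-breed lymphomas came from a spayed female Cavalier King Charles Spaniel aged 3 years, a spayed female Rhodesian Ridgeback aged 4 years and a castrated male Collie aged 11 years (libraries 1, 2 and 3). All 6 are described as CD4+ peripheral T cell lymphoma (PTCL), a cancer of mature helper T cells. The 3 controls are CD4+ T cells sorted from healthy, unneutered female hounds aged 1 year. Disease, breed, age, neutering and sorting therefore cannot be told apart in comparisons with controls. No label names the lymphomas' tissue of origin or a sorting step for them, and none says whether the 3 controls were drawn from different animals. The p-values below therefore reflect the variation among these libraries, which may be partly technical.

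The libraries held 11710623 to 18488468 reads. The summed level of 8 T cell markers was 47643 to 87075 normalised reads in lymphomas and 71614 to 74127 in controls, but its genes did not move alike. The receptor chain CD3G rose (0.50, adjusted p = 0.0299), the receptor kinase ZAP70 fell (-1.07, adjusted p = 0.00333) and 6 were not called. Among these CD5, a surface protein of T cells, had 265 to 4320 normalised reads in lymphomas, all below the 10272 to 10649 of controls (-2.09, adjusted p = 0.0591), while CD3E, another receptor chain, had 13794 to 22222 in lymphomas and 19718 to 21357 in controls. CD4 itself was not analysed here. Markers of some other cells rose with the lymphoma label, and few or none of those of others were called. Of 6 B cell markers and 2 epithelial markers tested 0 were called, and 1 of 5 cytotoxic markers rose. Single lymphomas still stood far above the controls. The B cell sum was 450 to 6191 normalised reads in lymphomas and 1341 to 1542 in controls. That of 3 epithelial markers was 304 to 5653 against 401 to 614, and that of the cytotoxic markers 113 to 1298 against 112 to 213. All 4 neutrophil markers tested rose. The summed level of 9 macrophage markers was 897 to 21189 normalised reads in lymphomas and 120 to 196 in controls. That of 9 fibroblast markers was 77.3 to 11350 in lymphomas and 20.6 to 38.2 in controls, where LUM and MMP2 were at 0. That of 6 endothelial markers was 94.2 to 6244 in lymphomas and 306 to 691 in controls, with other-breed libraries 1 and 2 (94.2 and 100) below all controls. Of these lists 8 of 9, 6 of 9 and 3 of 6 genes rose, and in each the lowest lymphoma was other-breed library 1 or 2. DCN, LUM, PDGFRB and FAP were at 0 in at least 1 lymphoma. The part of such cells in the results below was not tested, and in bulk RNA fewer cells of a type and less RNA per cell cannot be told apart.

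In the lymphomas 4 of the 10 genes rose, 2 fell and 4 did not pass the test. The higher genes were CCND2, CDK4, CDKN2C and E2F3, and the lower genes were CDKN1B and RBL2. Fold changes are differences of mean log2(normalised read count + 1), tested with limma across 15977 genes and called at an adjusted p under 0.05. Over all genes tested 19.4% were higher and 15.7% were lower at that threshold, so a call by itself is common in this comparison. For the same 6 genes the lymphoma values did not overlap the control values. All 6 lymphomas lay above all controls in 18.5% of the genes tested and below all controls in 17.2%. The median log2 fold change over all genes tested was 0.048.

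**Figure D1:**
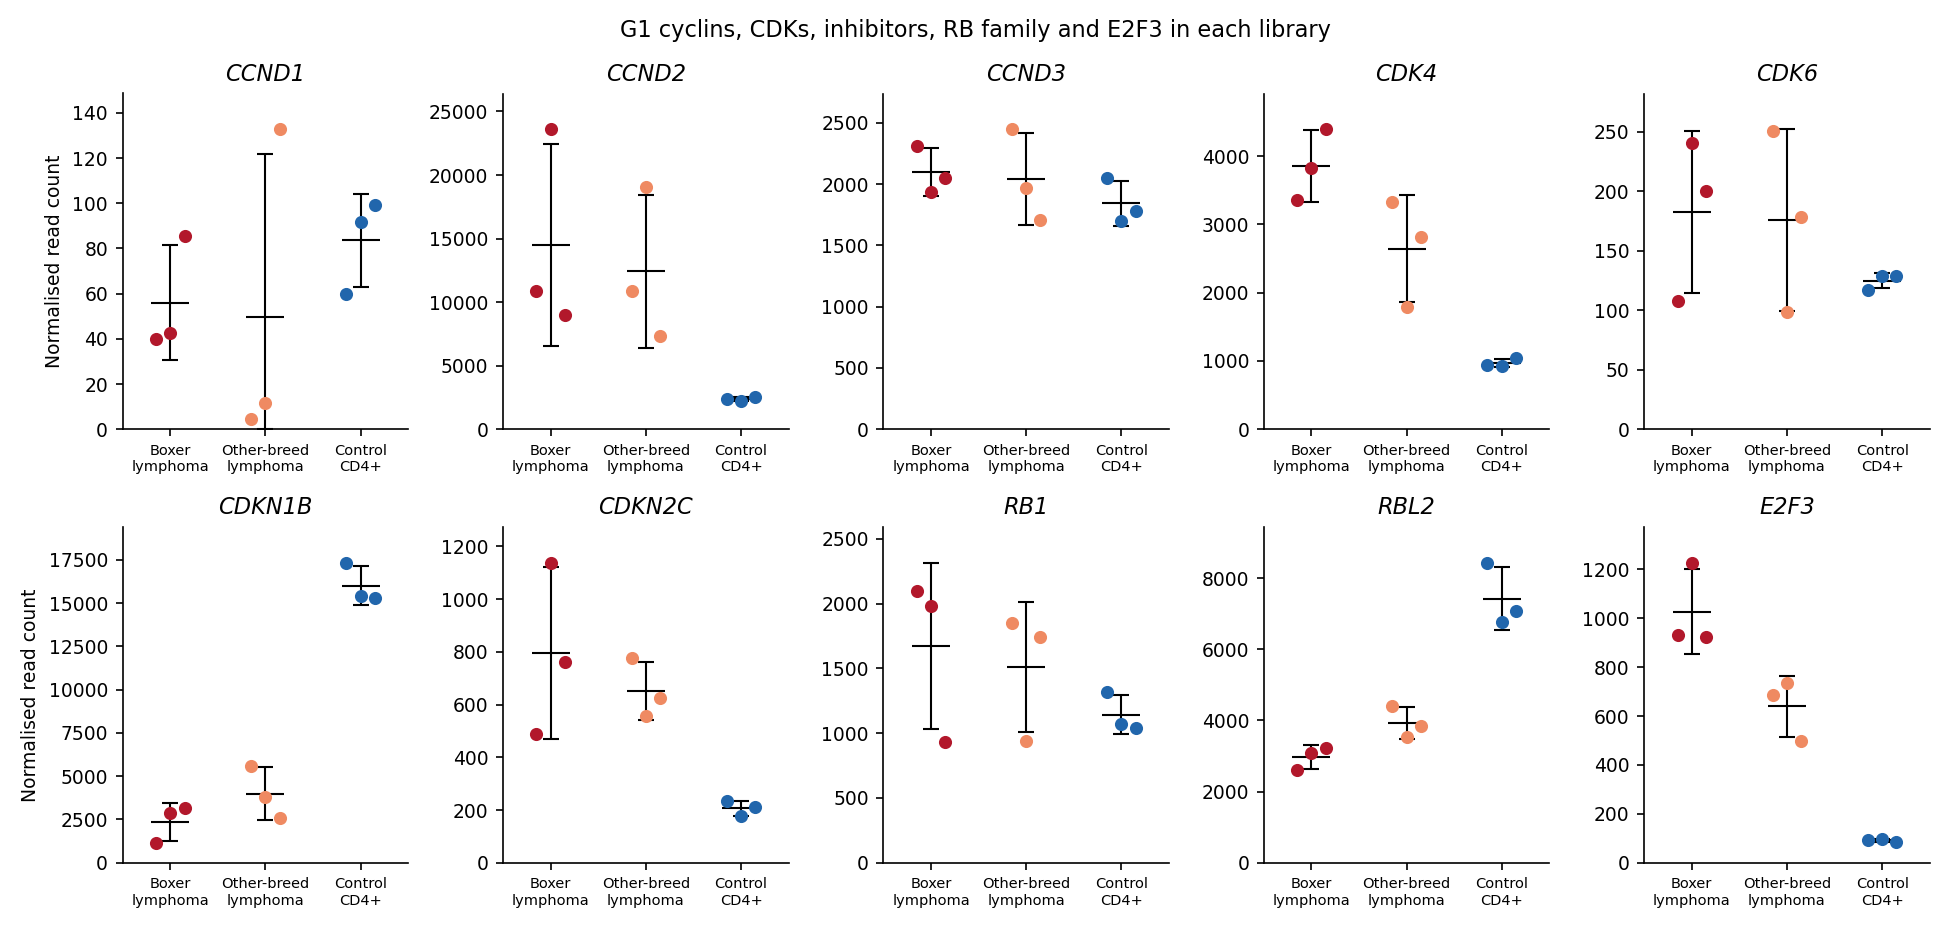
Normalised read count (vertical axes, each from 0) of the 10 genes in every library of the Boxer lymphomas, the other-breed lymphomas and the controls. Points are libraries 1 to 3 from left to right, horizontal marks are group means and bars are SD (n = 3). The lower bar stops at 0 where the SD exceeds the mean, as for CCND1 in the other-breed lymphomas. The lymphoma points lie above all controls for CCND2, CDK4, CDKN2C and E2F3 and below all controls for CDKN1B and RBL2.

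Among the D cyclins only CCND2 rose. CCND2 (ENSCAFG00000015381) had 10840, 23583 and 8984 normalised reads in the Boxer lymphomas, 10858, 19071 and 7341 in the other-breed lymphomas, and 2342, 2229 and 2547 in the controls. Boxer library 2 and other-breed library 2 stood well above the other 4 lymphomas, and the lowest lymphoma still lay far above the highest control. The log2 fold change was 2.38 ± 0.34 (SE, limma adjusted p = 7.46e-04), and the mean of the lymphomas was 5.67 times that of the controls. CCND3 (ENSCAFG00000001618) had 2315, 1936 and 2050 normalised reads in the Boxer lymphomas, 2446, 1964 and 1708 in the other-breed lymphomas, and 2053, 1702 and 1781 in the controls. These groups overlapped, and the interval of the CCND3 log2 fold change ran from -0.17 to 0.49 (95%, limma adjusted p = 0.423), so a change of the size of CCND2's lies outside it.

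The make-up of the D cyclin reads differed. CCND2 gave 82.2, 92.3 and 80.8% of the reads of the 3 D cyclin genes in the Boxer lymphomas and 81.6, 90.6 and 80.0% in the other-breed lymphomas, against 52.6, 55.4 and 57.5% in the controls. The share of CCND3 was 7.57 to 18.6% in lymphomas and 40.2 to 46.1% in controls. These are shares of reads with no correction for transcript length, and they compare libraries, not the abundance of the genes. The ratio of CCND2 to CCND3 reads, in which gene length cancels between libraries, was 4.30 to 12.2 in lymphomas and 1.14 to 1.43 in controls. The normalised reads of the 3 genes together came to 9182 to 25562 in lymphomas and 4023 to 4455 in controls. The separation of lymphomas from controls in these shares, ratio and sums is already fixed by the values of the single genes and is no further result.

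CCND1 (ENSCAFG00000010700) had few reads throughout, and its level split the lymphomas. It had 39.9, 42.7 and 85.4 normalised reads in the Boxer lymphomas, 4.71, 11.8 and 133 in the other-breed lymphomas, and 60.1, 91.6 and 99.1 in the controls. Each lymphoma value rests on 4 to 125 whole reads and each control value on 44 to 111. Of the 6 lymphomas 4 lay below the lowest control and 1, other-breed library 3, lay above the highest.

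The CCND1 log2 fold change was -1.29 ± 0.90 (95% interval -3.28 to 0.71, limma adjusted p = 0.284). Among female dogs alone, 3 lymphomas against the 3 controls, it was -2.49 with an adjusted p of 0.0451. With sex as a covariate the adjusted p was 0.0386, and with age, which extrapolates below the ages of the lymphoma-bearing dogs, it was 0.0178 (log2 fold change -4.02). For the other-breed lymphomas against controls, CCND1 moved by -1.95 (adjusted p = 0.182), and without other-breed library 3 by -3.27 (adjusted p = 0.00773). The call thus turned on which dogs and covariates entered the fit.

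Other-breed libraries 1 and 2, lowest in CCND1, also had the fewest fibroblast reads. Within each pair of libraries below, however, the fibroblast order was the reverse of the CCND1 order. The fibroblast marker sum was 139 and 77.3 in other-breed libraries 1 and 2, 3002 and 2180 in Boxer libraries 1 and 2, and 11350 and 7743 in Boxer library 3 and other-breed library 3. The endothelial marker sum ranked the lymphomas exactly as CCND1 did. It was 94.2 and 100 in other-breed libraries 1 and 2, 1444 and 2290 in Boxer libraries 1 and 2, and 4154 and 6244 in the last pair. The controls, by contrast, held 60.1 to 99.1 normalised reads of CCND1 beside 20.6 to 38.2 of the fibroblast markers. Their endothelial marker sum was 306 to 691. Whether stromal cells supply the CCND1 reads of the lymphomas was not tested.

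**Figure D2:**
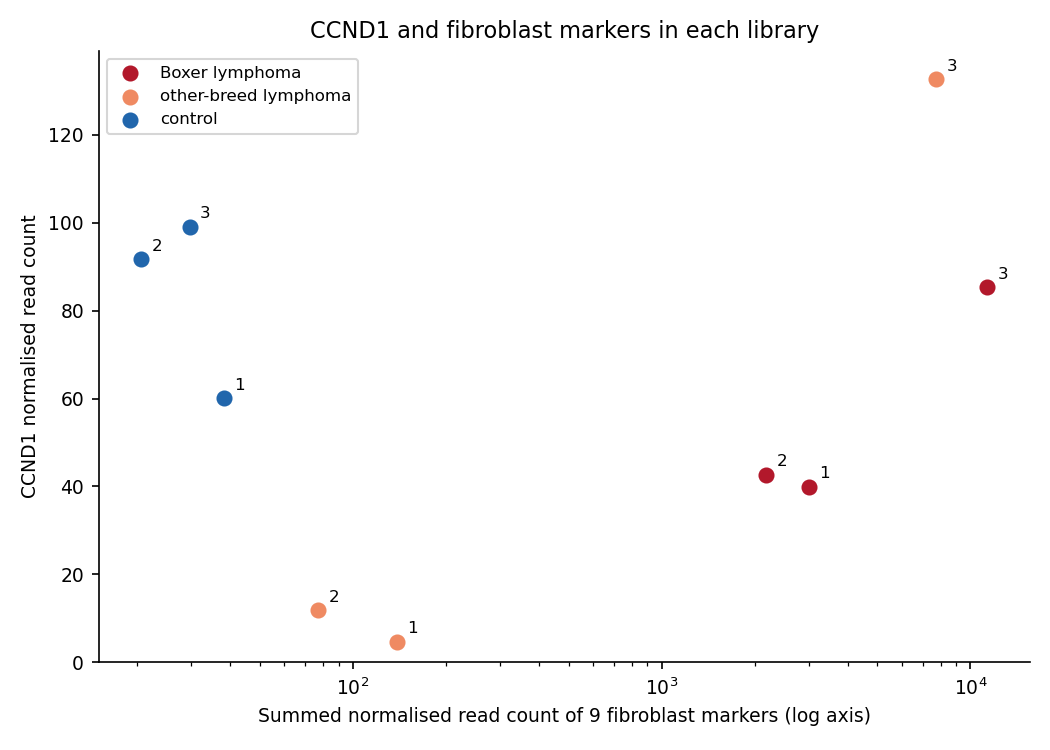
CCND1 normalised read count (vertical axis) against the summed normalised read count of 9 fibroblast markers (horizontal log axis) in each of the 9 libraries. Each point is 1 library and bears its library number. Other-breed lymphomas 1 and 2 sit at the bottom with 4.71 and 11.8 CCND1 reads, and the controls hold 60.1 to 99.1 at marker sums of 38.2 or less.

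Of the kinases, CDK4 rose and CDK6 did not pass. CDK4 (ENSCAFG00000000280) had 3350, 3824 and 4389 normalised reads in the Boxer lymphomas, 3331, 1785 and 2815 in the other-breed lymphomas, and 947, 930 and 1038 in the controls. Other-breed library 2 was the lowest lymphoma and still had more than any control. The log2 fold change was 1.69 ± 0.25 (SE, limma adjusted p = 8.56e-04). CDK6 (ENSCAFG00000001998), which shares the D cyclins with CDK4, had 98.6 to 251 normalised reads in lymphomas and 117 to 129 in controls. Boxer library 1 and other-breed library 2 lay below all controls for CDK6 and the other 4 lymphomas above, and the log2 fold change was 0.43 (95% interval -0.34 to 1.20, adjusted p = 0.354). The ratio of CDK4 to CDK6 reads was 13.3 to 31.0 in lymphomas and 7.22 to 8.07 in controls.

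The 2 inhibitors moved in opposite directions. CDKN1B (ENSCAFG00000013244) had 1118, 2858 and 3137 normalised reads in the Boxer lymphomas and 5605, 3796 and 2598 in the other-breed lymphomas, against 17319, 15420 and 15306 in the controls. The lymphomas differed widely without coming near the controls, with Boxer library 1 lowest and other-breed library 1 highest. The log2 fold change was -2.48 ± 0.39 (SE, limma adjusted p = 0.00133), and the mean of the controls was 5.03 times that of the lymphomas. In the fit that included age, CDKN1B gave -1.91 and missed the threshold (adjusted p = 0.0628).

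CDKN2C (ENSCAFG00000028905), an INK4 inhibitor that binds CDK4 and CDK6 directly, was higher in the lymphomas although it opposes the same kinases. It had 488, 1137 and 760 normalised reads in the Boxer lymphomas, 775, 558 and 623 in the other-breed lymphomas, and 233, 178 and 211 in the controls. The lowest lymphoma, Boxer library 1, lay well above the highest control, and the log2 fold change was 1.75 ± 0.26 (SE, limma adjusted p = 8.91e-04). The ratio of CDKN1B to CDKN2C reads was 2.29 to 7.24 in lymphomas and 72.5 to 86.9 in controls, a separation that the values of both genes already fix.

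Set against CDKN1B, CCND2 and CDK4 stood higher in every lymphoma than in any control. That separation follows from the values of the single genes given above and is no further result. The ratio of CCND2 to CDKN1B reads was 9.70, 8.25 and 2.86 in the Boxer lymphomas, 1.94, 5.02 and 2.83 in the other-breed lymphomas, and 0.135, 0.145 and 0.166 in the controls. The ratio of CDK4 to CDKN1B reads was 0.470 to 3.00 in lymphomas and 0.0547 to 0.0678 in controls. The lymphomas reached a high CCND2 ratio from different sides. Boxer library 1 had the least CDKN1B and an intermediate CCND2, while Boxer library 2 had the most CCND2 and an intermediate CDKN1B.

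**Figure D3:**
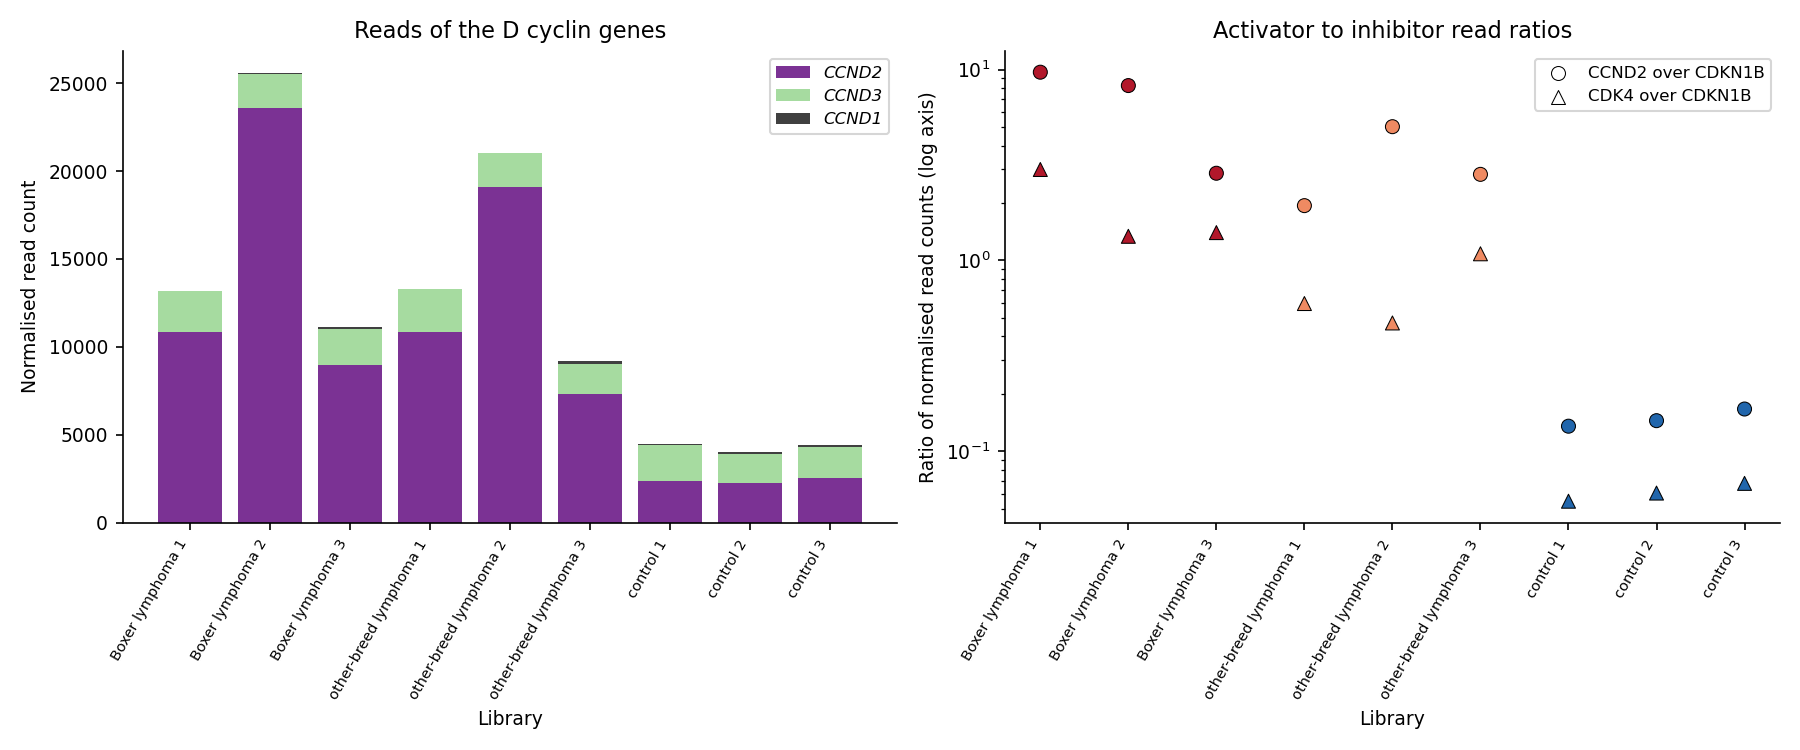
Left, normalised read counts of CCND2, CCND3 and CCND1 stacked for each library, from 0. Right, the ratios of CCND2 to CDKN1B reads (circles) and of CDK4 to CDKN1B reads (triangles) in the same libraries on a log axis. CCND2 fills 80.0 to 92.3% of the stacks of lymphomas and 52.6 to 57.5% of those of controls. Every lymphoma ratio lies above every control ratio, which the values of the single genes already fix.

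In the RB family RBL2 fell and RB1 did not pass. RBL2 (ENSCAFG00000009654) had 2600, 3095 and 3225 normalised reads in the Boxer lymphomas, 4415, 3531 and 3834 in the other-breed lymphomas, and 8424, 6777 and 7065 in the controls. Every lymphoma lay below every control, and the lymphomas themselves were even, with an SD of 18.3% of their mean. The log2 fold change was -1.12 ± 0.18 (SE, limma adjusted p = 0.00128). RB1 (ENSCAFG00000004436) had 935 to 2098 normalised reads in lymphomas and 1043 to 1316 in controls. Boxer library 3 (935) and other-breed library 2 (936) lay below the controls for RB1 and the other 4 lymphomas above. The interval of its log2 fold change, 0.41, ran from -0.24 to 1.06 (95%, adjusted p = 0.298), so it takes in both no change and a log2 change of 1.

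RBL1 (p107), the pocket protein known to accumulate in dividing cells, did not pass the threshold over all lymphomas, with a log2 fold change of 0.51 (adjusted p = 0.122). Against the same controls RBL1 was called higher in Boxer lymphomas (0.80, adjusted p = 0.0212) and was 0.22 in other-breed lymphomas (adjusted p = 0.492), and the direct comparison of Boxer with other-breed lymphomas did not call it (0.58, limma unadjusted p = 0.0425, adjusted p = 0.881). The ratio of RBL1 to RBL2 reads was 0.546, 0.538 and 0.436 in the Boxer lymphomas, 0.296, 0.272 and 0.205 in the other-breed lymphomas, and 0.108 to 0.122 in the controls. The 3 groups did not overlap in that ratio. This was fixed by the values of the single genes. RBL1 was 1406 to 1667 in Boxer lymphomas, 788 to 1305 in other-breed lymphomas and 763 to 1026 in controls. RBL2 was 2600 to 3225, 3531 to 4415 and 6777 to 8424. Every Boxer lymphoma lay above every other-breed lymphoma in 4.99% of all genes tested and below in 5.7%. Neither gene was called between the lymphoma groups (limma adjusted p = 0.881 for each), and how often other gene pairs part the groups was not counted.

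E2F3, an activator E2F, had the largest log2 fold change of the 10 genes. E2F3 (ENSCAFG00000031036) had 930, 1226 and 925 normalised reads in the Boxer lymphomas, 685, 735 and 498 in the other-breed lymphomas, and 92.8, 97.4 and 83.3 in the controls. The controls were nearly level, and the lowest lymphoma, other-breed library 3, was far above them. The log2 fold change was 3.12 ± 0.27 (SE, limma adjusted p = 4.94e-05), and over the 20 alternative settings the value ranged from 3.00 to 3.29 with an adjusted p of at most 0.00250.

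Each lymphoma group was also set against the same 3 controls. In the Boxer lymphomas 4 of 10 genes rose and 2 fell, where 18.6% of all genes tested were higher and 14.4% were lower. In the other-breed lymphomas the counts were also 4 and 2, where 13.8% were higher and 10.7% were lower. The genes called were those named above in either case. In the fit with age, 3 genes rose in other-breed lymphomas and CCND1 was the 1 that fell, since CDKN1B (adjusted p = 0.0864), RBL2 (0.0541) and CDKN2C (0.0542) missed the threshold. The log2 fold changes in Boxer and other-breed lymphomas were 2.48 and 2.28 for CCND2, 1.98 and 1.40 for CDK4, 1.86 and 1.64 for CDKN2C, and 3.47 and 2.78 for E2F3. They were -2.89 and -2.07 for CDKN1B and -1.32 and -0.92 for RBL2. These comparisons share their controls, so their likeness is no independent result.

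The direct comparison of the 3 Boxer with the 3 other-breed lymphomas gave no call by limma, for the 10 genes or any other, with 0% of 15112 genes higher and 0% lower. At an unadjusted p under 0.05 there were 753 genes, and 1 of the 10, E2F3. The edgeR test gave 0 calls, and DESeq2 called 44 genes higher and 58 lower, none of them among the 10. For CDK4 and E2F3 every Boxer lymphoma lay above every other-breed lymphoma, as did 4.99% of all genes tested. For RBL2 every Boxer lymphoma lay below every other-breed lymphoma, as did 5.7% of all genes.

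The E2F3 difference, Boxer over other-breed, was 0.69 on the log2 scale (95% interval 0.12 to 1.26, limma unadjusted p = 0.0241, adjusted p = 0.881). For RBL2 it was -0.40 (-0.84 to 0.04) and for CDK4 0.58 (-0.05 to 1.22). The CDK4 groups were parted by little, since Boxer library 1 had 3350 normalised reads and other-breed library 1 had 3331. CDKN1B averaged 2371 ± 1094 normalised reads in Boxer and 4000 ± 1514 in other-breed lymphomas (SD, n = 3 each) and overlapped (log2 difference -0.82, 95% interval -1.91 to 0.27). The intervals of CCND1 (-1.45 to 4.11), CCND2 (-0.93 to 1.33) and CDK6 (-1.09 to 1.24) are wide and take in differences in either direction.

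**Figure D4:**
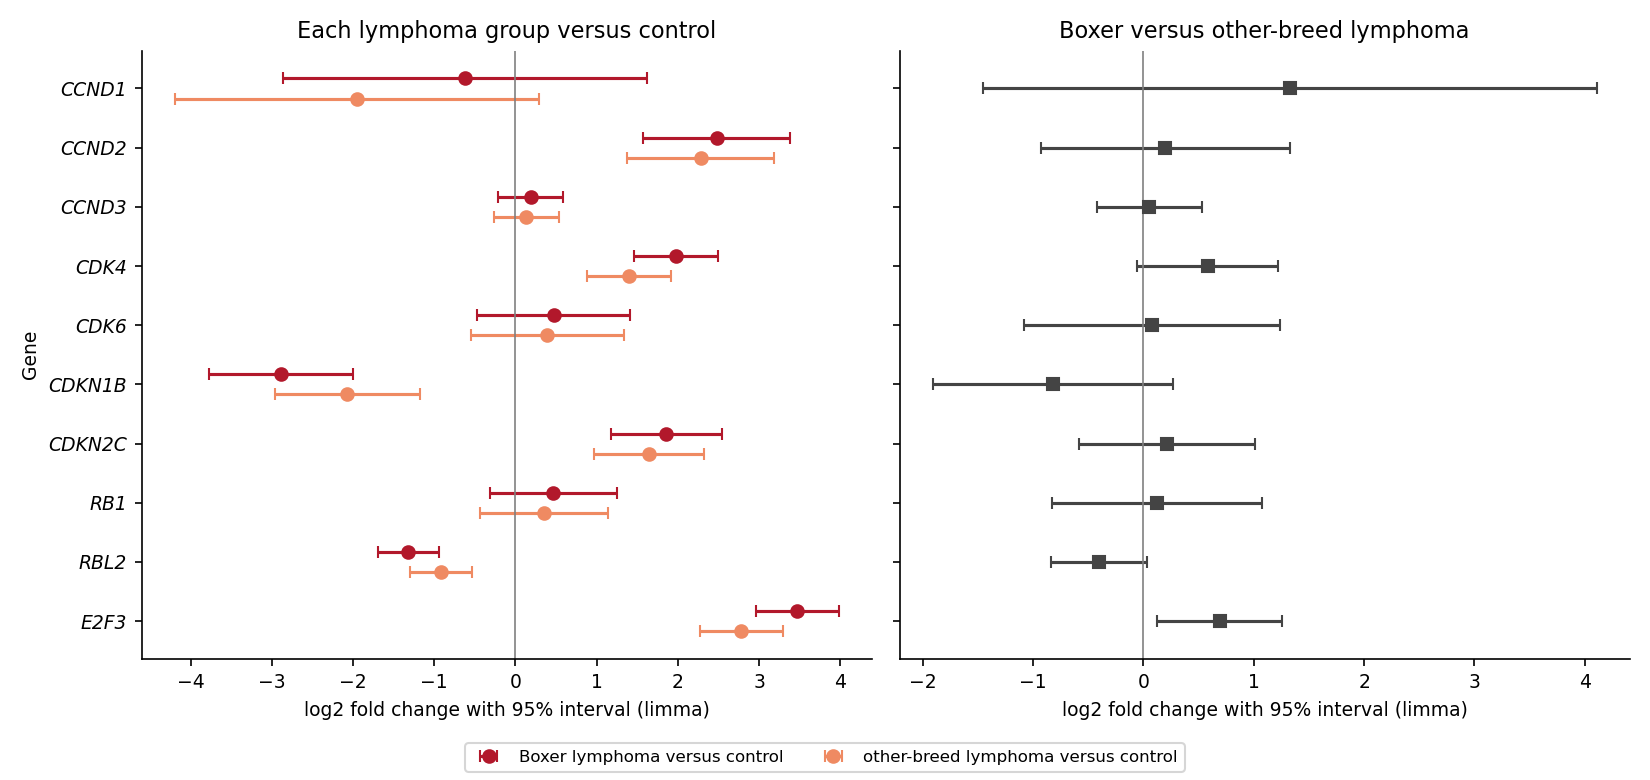
Log2 fold change (horizontal axes) with 95% intervals from limma for the 10 genes. Left, Boxer and other-breed lymphomas against the shared controls (3 libraries each). Right, Boxer against other-breed lymphomas, where the interval of E2F3 (0.12 to 1.26) lies above 0 and no gene passes the adjusted threshold.

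The genes differed in how evenly the lymphomas expressed them, with CCND3 the most even (2070 ± 269 normalised reads, SD, n = 6). Their SD was 18.3% of the mean for RBL2, 27.5% for CDK4 and 30.2% for E2F3, against 46.5% for CDKN1B, 47.6% for CCND2 and 91.5% for CCND1. In the controls the SD was 5.26 to 24.8% of the mean, highest again for CCND1. Other-breed library 2 had the lowest CDK4 and CDK6 of the lymphomas together with the second-highest CCND2. It also had the lowest summed level of 7 mitosis markers, 11648 normalised reads, against 16999 to 32270 in the other 5 lymphomas and 1710 to 1990 in the controls.

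Genes that act beside these in G1 moved in part. Of 8 other G1 cyclins, kinases and their activators 3 rose and 0 fell. They were CCNE2, the cyclin that follows cyclin D (2.02 ± 0.31), its kinase CDK2 (1.53 ± 0.29), and the kinase chaperone CDC37 (0.54 ± 0.16, adjusted p = 0.0238), whose call ended in the fit with age (0.0975) and without control 1 (0.116) or 2 (0.0586). Without Boxer library 1 or with limma-voom the list had 1 lower gene. CCNE1 had 39.6 to 153 normalised reads in lymphomas, some above and some below the 62.0 to 67.7 of the controls (0.22, adjusted p = 0.731). The list's median was 0.18, against 0.048 over all genes tested. Of the other CDK inhibitors only CDKN1A and CDKN2B were measured, and neither passed (0.80 and -0.48). CDKN1C, CDKN2A and CDKN2D were not analysed here.

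Of 9 other pocket protein, E2F and DP genes measured 4 rose, with a list median of 0.91. E2F1, also on the list, was not found by its symbol and was not analysed here. E2F7 and E2F8 are repressor E2Fs that are themselves E2F targets. E2F7 had 289 to 531 normalised reads in lymphomas and 38.0 to 58.7 in controls (3.14 ± 0.27, limma adjusted p = 4.86e-05), a change close in size to that of E2F3. E2F8 rose by 1.70 ± 0.40 (adjusted p = 0.00893, 0.0845 in the fit with age). The dimer partner TFDP1 (0.97 ± 0.26) and the activator E2F2 (1.51 ± 0.53, adjusted p = 0.0467) rose too, but E2F2 lost its call in 12 of 20 alternative settings and TFDP1 in the fit with age or when any 1 control was left out. The list's count of higher genes was then 1 with age and 2 without any 1 control, and without Boxer library 1 or with limma-voom it had 1 lower gene. E2F4, the E2F that p130 recruits in resting cells, had 475 to 686 normalised reads in lymphomas and 482 to 525 in controls, with a log2 fold change of 0.04 that missed the threshold.

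Of 8 genes of the DREAM complex and its MuvB core, the partners of p130, 4 rose, with a list median of 0.49. FOXM1 (3.30 ± 0.37) and MYBL2 (2.54 ± 0.31), which join the MuvB core to activate mitotic genes, rose, as did the core subunits LIN9 (0.87 ± 0.22) and RBBP4 (0.61 ± 0.19). LIN9 and RBBP4 missed the threshold without control 2 (adjusted p 0.0550 and 0.123) or control 3 (0.0562 and 0.122), which left 2 higher genes. RBBP4 also missed it in the fit with age (0.242) and in female dogs alone (0.0585). LIN37, LIN52, LIN54 and DYRK1A, the kinase that assembles DREAM, did not pass.

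Of 20 measured E2F target genes 19 rose and 0 fell, with a list median of 1.93. CDC6, the loader of the replicative helicase, had 446 to 806 normalised reads in lymphomas and 49.1 to 71.3 in controls (3.37 ± 0.25, limma adjusted p = 2.55e-05). UHRF1, which maintains DNA methylation, rose by 2.98, and the helicase subunits MCM5 and MCM2 rose by 3.02 and 2.18. CDT1 was the exception, with 326 to 1033 normalised reads in lymphomas and 300 to 432 in controls (0.92, adjusted p = 0.0611). Against the same controls 20 of the 20 rose in Boxer lymphomas, CDT1 among them (1.21, adjusted p = 0.0324), and 18 in other-breed lymphomas, where CDT1 was not called (0.62, adjusted p = 0.245). The direct comparison of Boxer with other-breed lymphomas did not call CDT1 (0.59, limma adjusted p = 0.881). All 7 mitosis markers measured rose, with a median of 2.88, among them TOP2A (4.16), CDK1 (3.74), CCNA2 (3.18) and PLK1 (2.65).

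Genes that act upstream of p27 and the D cyclins were mostly lower. Of 7 quiescence factors 5 fell and 0 rose, with a median of -1.29. FOXO1, a transcription factor known to activate CDKN1B, had 395 to 681 normalised reads in lymphomas and 1348 to 1614 in controls (-1.50 ± 0.20, limma adjusted p = 5.61e-04). FOXP1 fell by 1.51, FOXO3 by 1.29 (adjusted p = 0.0109) and BTG2 by 2.23 (adjusted p = 0.0392). BTG2 lost its call in 11 of 20 alternative settings and FOXP1 in the fit with age (0.0961). FOXO3 lost its call without control 1 (0.0628) and in the fits with sex (0.0514) and age (0.241). The list's count of lower genes was 2 without control 1, 3 without control 2, control 3 or other-breed library 3, 3 in female dogs alone, 2 in the fit with sex and 1 in the fit with age.

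Of 7 factors known to drive D cyclin genes 5 fell and 1 rose, with a list median of -0.68. Over all genes tested 15.7% were lower and 19.4% were higher. STAT5B, which carries interleukin 2 signals, fell by 1.60, the NF-kappaB subunits NFKB1 and RELA by 0.75 and 0.73, and MYC by 0.68. MYB, a transcription factor of immature and dividing blood cells, had 7487, 6327 and 4863 normalised reads in the Boxer lymphomas, 2435, 1281 and 1875 in the other-breed lymphomas and 303 to 651 in the controls (3.08 ± 0.55, limma adjusted p = 0.00242). In the fit with age, MYB gave 2.85 with an adjusted p of 0.0639, and 1 gene of the list fell and 0 rose. Without other-breed library 2 or with limma-voom the list had 2 higher genes.

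The machinery that degrades p27 and D cyclins was measured for 9 of 12 listed genes, of which 2 rose and 1 fell. These counts are near the shares over all genes tested, 19.4% higher and 15.7% lower. DESeq2 and limma-voom each called 4 genes of the list higher, and limma-voom called 2 lower. The list median was 0.43, against 0.048 over all genes tested. SKP2, the ubiquitin ligase subunit that targets the p27 protein, had 342 to 1077 normalised reads in lymphomas and 207 to 236 in controls (1.10 ± 0.35, adjusted p = 0.0343). That call was lost when any 1 control (adjusted p 0.0877 to 0.112) or Boxer library 3 (0.0623) was left out, and in the fits with sex (0.154) or age (0.213), which left 1 higher gene in the list. COPS5, also linked to p27 export and turnover, rose by 0.94 ± 0.21, and FBXO4 fell by 0.58 ± 0.20 (adjusted p = 0.0445). In 12 of 20 alternative settings, among them the fits without control 1 or 2, any Boxer library or other-breed library 1 or 2, FBXO4 missed the threshold.

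**Figure D5:**
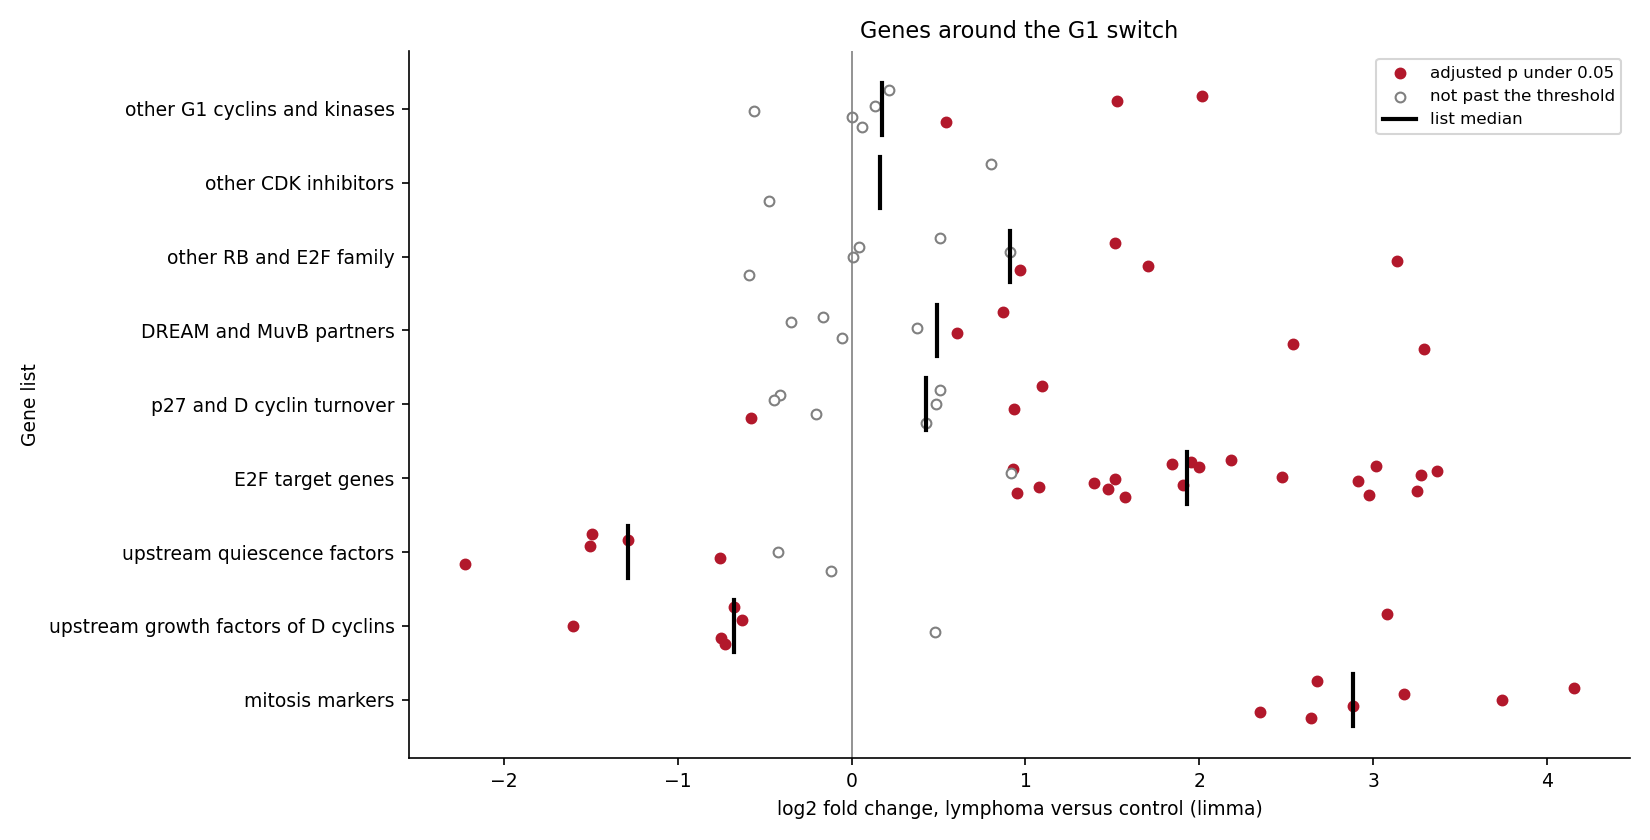
Log2 fold change, lymphoma versus control (horizontal axis), of each measured gene of 9 lists around the G1 switch. Red points passed an adjusted p of 0.05 in limma, open points did not, and black bars are list medians. The E2F target genes (median 1.93) and mitosis markers (2.88) lie to the right of 0, and the upstream quiescence factors (-1.29) to the left.

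The genes most like 4 of the 10 in their pattern were found by Pearson correlation of log2(normalised read count + 1) over the 9 libraries, among 11223 genes with a symbol. The values are descriptions over libraries that share the lymphoma and control groups, and carry no test. CDK4 was followed most closely by CCT2, a chaperonin subunit (r = 0.996), CENPE, a kinetochore motor (0.995), and MCM10, a replication factor (0.991). E2F3 was followed by the mitotic kinesins KIF18A (0.994) and KIF14 (0.993), with the RNA-binding protein gene MEX3B between them (0.994). CDKN1B was followed by GIMAP8, a GTPase of lymphocytes (0.984), PEX26, a peroxisome gene (0.983), and RPRD2 (0.982). CCND2 was followed by TIMM17A, a subunit of the mitochondrial import machinery (0.996), CLDN34 (0.990), which had 12.5 to 79.6 normalised reads in lymphomas and 0 in each control, and NUDT3 (0.983).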

How the data were processed

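Messenger RNA from 6 lymphomas and 3 sorted control samples was captured with oligo(dT) beads and reverse transcribed from random hexamers, per the labels' protocols. The submitters' processing notes name TopHat2, HTSeq, DESeq2 and the build CanFam3.1, without versions. No source used here states whether libraries were stranded, and an antisense transcript could share reads with its partner. Per the values themselves, each deposited signal is a read count scaled by a single library factor, since 100% of values came out as whole reads (tolerance 0.01 reads). Coordinates and sequences were not used.

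The tests used limma 3.58.1 (R 4.3.3) on log2(value + 1), a scale that understates the change of low genes, with a mean-variance trend. A gene entered when 3 or more of the libraries compared reached 10, and p-values were adjusted over all such genes by Benjamini-Hochberg. Boxer and other-breed lymphomas were each set against controls in 1 fit of 3 groups, and against each other without controls. Alternatives were pseudocounts 0.5 and 5, no filter, TMM scaling, edgeR 4.0.16 and DESeq2 1.42.0 on recovered reads, limma-voom with sample weights, a replicate block, sex or age as a covariate, female dogs alone, and leaving out each library. The limma step was checked on simulated counts drawn with the same dispersion in every library. That check does not cover the wider spread of the lymphomas than of the controls.

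The 10 genes, the lists and the tests were chosen with earlier results of these data known. By rule the text names all 10 genes, up to 4 called genes per list and direction with the smallest p, and the 3 genes most like CCND2, CDK4, CDKN1B and E2F3. Uncalled list genes that are named, such as CCNE1, E2F4, CDT1 and RBL1, were picked after their values were seen. Lists are described by counts and medians, with no set test.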

Additional observations from a re-analysis of the deposited data

How the results depend on the processing

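Against controls, 4 higher genes of the 10 were found for all lymphomas and for Boxer lymphomas in every alternative run. The count of lower genes was 2 or 3, the third being CCND1 where sex, age or the choice of dogs was changed, except with age for all lymphomas, where CCND1 was called and CDKN1B was not. For other-breed lymphomas with age, 1 gene was lower (CCND1) and 3 higher, since CDKN1B, CDKN2C and RBL2 missed the threshold. Leaving out any 1 library kept 4 higher and 2 lower, or 3 lower for other-breed lymphomas.

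Over all genes, age as a covariate gave 1048 higher and 885 lower for all lymphomas, 1025 and 919 for Boxer, and 950 and 858 for other-breed lymphomas. Sex gave 1768 and 1413 for Boxer lymphomas, and limma-voom 3976 lower for all lymphomas. Between Boxer and other-breed lymphomas DESeq2 called 44 higher and 58 lower, and a pseudocount of 5 called 2 lower. Leaving out 1 library gave 1866 to 3291 higher and 1194 to 2605 lower for all lymphomas, 1699 to 3126 and 1076 to 2509 for Boxer, 1120 to 2278 and 569 to 1854 for other-breed lymphomas, each lowest without control 2, and 0 to 1 in each direction between breeds.

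Uncalled differences between Boxer and other-breed lymphomas changed sign when 1 library was left out, at -0.22 to 0.56 for CCND2, -0.066 to 0.19 for CCND3, -0.29 to 0.42 for CDK6, -0.084 to 0.52 for CDKN2C and -0.19 to 0.50 for RB1, which was -0.060 with limma-voom. CCND3 in other-breed lymphomas against controls ran from -0.0062 to 0.25. The causes were not tested. Same-numbered libraries of different groups did not deviate together (correlations -0.14 to 0.10), and the replicate block gave 4 higher and 2 lower genes of the 10 against controls and 0 between breeds, as without it. Its counts over all genes stayed within 1.5 times of those reported. Among the called list genes named here, the block ended the calls of CDC37 (limma adjusted p = 0.0510), E2F2 (0.0752), BTG2 (0.0686) and FBXO4 (0.0809). It left 3 lower quiescence factors, since a called gene of that list that is not named also missed the threshold. CCND1 is limited by depth, at 4 reads in its lowest lymphoma.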
